A study of Caenorhabditis elegans with 2 samples.

Results

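The genes described here are the 129 genes of biotype snRNA in the Ensembl gene models of *Caenorhabditis elegans* (assembly WBcel235, of 46890 annotated genes in all), taken whether or not a bound region lay near them. They include 30 genes named as spliced-leader RNA genes, 12 of them sls-1 and 18 sls-2. Binding of the forkhead transcription factor FKH-3 was mapped by ChIP-seq, the sequencing of DNA that precipitates with a protein from fixed chromatin. The material was whole young adults of mixed sex of strain OP594 (unc-119(tm4063) III; wgIs594), collected 63 h after synchronisation of starved L1 larvae. The worms stably expressed FKH-3 with a GFP-FLAG tag at its C terminus, and sonicated chromatin was recovered with an anti-GFP antibody, although the antibody field of the labels names fkh-3. Both samples, biological replicates 1 and 2, belong to the same group, which leaves no second condition. The control library was not analysed here. The promoter that drives the transgene is not given in the sources used here, and whole worms do not show in which cells a region was bound.

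Small nuclear RNAs form the core of the spliceosome. U1 pairs with the start of an intron and U2 with its branch site, U4, U5 and U6 join as a preformed particle, and U6 takes part in catalysis. Nematodes also have spliced-leader RNAs, which donate a short leader exon to the 5′ end of messenger RNAs by trans-splicing. SL1 is added to the first gene of a transcription unit and SL2 mainly to downstream genes of operons. The snRNA and spliced-leader genes are transcribed from short promoters with a proximal sequence element, to which the complex SNAPc binds, most of them by RNA polymerase II and U6 by RNA polymerase III.

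Besides the spliced-leader genes, 10 genes are named smy. They encode SmY RNAs, small RNAs found with the trans-splicing machinery of nematodes. No gene is named for U1, U2, U4, U5 or U6 in either annotation, so the others were grouped by sequence. A gene joined a family through at least 70% identity, over the longer gene, to at least 1 member, so other pairs in a family can be less alike. Each family is called by 1 of its genes. The sup-6 family has 13 genes, among them sup-6 and sup-39, which are known as U1 snRNA genes. The R07E5.16 family has 24 genes of 93 to 108 nt, and 22 of them hold ACAGAGA, the word by which U6 pairs with the 5′ splice site. The Y57G11C.35 family has 19 genes, 18 of them with GTAGTA, the word of U2 that pairs with the branch site. The F32B5.9 family has 12 genes, 11 of them with CTTTTAC, the word in the loop of U5. The C52E4.8 family has 5 genes, the B0213.21 family 7, and the other 9 genes are kept together as a remainder, 1 of them with GTAGTA.

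Genes from some of the families with highly ranked summits, and 1 SL1 gene for comparison, are shown with the part that identifies them, as RefSeq gives the sequence for WBcel235. In the spliced-leader genes the capitals mark the leader, taken by rule as the stretch from GGTTT to the first AG that GT follows. Such a stretch was found in every SL2 gene and in 10 of the 12 SL1 genes. F20D1.21 and F35B3.10, from the remainder, begin with such a stretch too, but the rule was applied only to genes named sls. They are not counted as spliced-leader genes here. F20D1.21 had a pooled summit of rank 25887 within 250 bp, and F35B3.10 had none. The leader begins at base 2 of the annotated gene in sls-1.2, and the annotated sls-1.1 and sls-1.5, of 68 nt, hold no leader. In sup-6 and F10D2.13 the capitals mark ATTTTTG, a word of the kind that Sm proteins bind. Of the sls-2 genes, 13 of 18 hold ATTTTTG, as do 13 of 13 genes of the sup-6 family and 0 of 24 of the R07E5.16 family.
sls-2.1 (chrII:5844865-5844974, plus strand, 110 nt): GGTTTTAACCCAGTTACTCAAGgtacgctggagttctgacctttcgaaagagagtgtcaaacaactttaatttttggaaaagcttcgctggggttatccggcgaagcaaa
sls-2.16 (chrIII:7141391-7141499, plus strand, 109 nt): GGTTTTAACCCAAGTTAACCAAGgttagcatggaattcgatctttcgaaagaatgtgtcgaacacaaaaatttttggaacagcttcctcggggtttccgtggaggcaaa
sls-1.2 (chrV:17131064-17131161, minus strand, 98 nt): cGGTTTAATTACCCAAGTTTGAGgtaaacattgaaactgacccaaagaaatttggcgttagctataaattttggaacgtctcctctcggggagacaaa
sup-6 (chrII:12944803-12944967, minus strand, 165 nt): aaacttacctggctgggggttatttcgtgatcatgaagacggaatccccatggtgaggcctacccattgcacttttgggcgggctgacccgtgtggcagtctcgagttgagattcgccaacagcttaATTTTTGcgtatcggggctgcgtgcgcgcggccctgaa
F10D2.13 (chrV:7142717-7142858, minus strand, 142 nt): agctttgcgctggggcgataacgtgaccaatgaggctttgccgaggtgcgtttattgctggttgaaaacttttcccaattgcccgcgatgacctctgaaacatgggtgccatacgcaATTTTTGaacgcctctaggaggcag

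Many of these genes have short words in common in their promoters, mostly at a similar distance from the 5′ end, and 72 of 129 hold at least 1 of the pair described here. Among all 6-base words in the 100 bases before the gene, read on the coding strand, AACCCG was the most frequent, in 43 of 129 promoters, and TGTCGG, which shares no 4 bases with it, came next, in 42. Overlapping genes, mir-1831 with sup-39 and T27E4.22 with T27E4.12, hold the same AACCCG and are each counted. Counting bases before the 5′ end as negative, AACCCG began at a median position of -58 (quartiles -59 and -57) and TGTCGG at a median position of -47 (quartiles -48 and -47). The windows of the other 46761 genes held AACCCG in 0.881% and TGTCGG in 1.04% of cases, or in 1.62% and 1.9% counting both strands. Both words stood together in 13 snRNA gene promoters (10.1%), against 44 promoters of all other genes (0.0941%). Among these 44 were 19 of 346 snoRNA genes, which guide the modification of other RNAs, and 0 of 612 tRNA genes. The 8-base word CGGAACCC, which overlaps the first word, was in 31 promoters of snRNA genes and in 0.077% of the others, and TGTCGGTA in 23 and in 0.0556%. The words were picked for being frequent in these promoters, so a higher share there than in other genes is partly by choice. A shared word is a description of the sequence, and no factor was assigned to it.

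The words varied between families. All 12 F32B5.9 family genes had AACCCG, 14 of 19 Y57G11C.35 family genes had TGTCGG but none of them AACCCG, and 16 of 18 SL2 genes had at least 1 of the pair. No SL1 gene had either. The 40 bases from position -70 to -31 are shown for 10 genes with a summit in the thresholded list, with the pair of words in capitals. They are followed by 1 gene of the Y57G11C.35 family, which had no summit in the thresholded list, and by 1 SL1 gene, which had none in any list.
sls-2.16 (chrIII:7141321-7141360, plus strand): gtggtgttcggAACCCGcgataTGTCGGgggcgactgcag
sls-2.15 (chrIII:11090940-11090979, plus strand): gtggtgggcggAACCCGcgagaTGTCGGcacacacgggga
sls-2.8 (chrIII:12250395-12250434, plus strand): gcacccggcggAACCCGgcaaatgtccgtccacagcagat
sls-2.1 (chrII:5844795-5844834, plus strand): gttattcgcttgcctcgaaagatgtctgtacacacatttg
sup-6 (chrII:12944998-12945037, minus strand): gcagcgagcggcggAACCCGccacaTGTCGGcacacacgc
sup-39 (chrII:6968589-6968628, minus strand): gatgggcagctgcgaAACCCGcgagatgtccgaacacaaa
F10D2.13 (chrV:7142889-7142928, minus strand): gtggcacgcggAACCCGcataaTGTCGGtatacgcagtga
W05B2.8 (chrIII:10989609-10989648, plus strand): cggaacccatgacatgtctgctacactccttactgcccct
F54D8.7 (chrIII:5080929-5080968, minus strand): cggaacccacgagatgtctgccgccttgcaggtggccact
Y9C9A.111 (chrIV:4930884-4930923, plus strand): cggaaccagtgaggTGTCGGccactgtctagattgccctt
Y57G11C.35 (chrIV:14765065-14765104, minus strand): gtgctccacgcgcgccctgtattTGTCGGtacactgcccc
sls-1.2 (chrV:17131192-17131231, minus strand): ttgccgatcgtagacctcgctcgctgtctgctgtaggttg

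**Figure D1:**
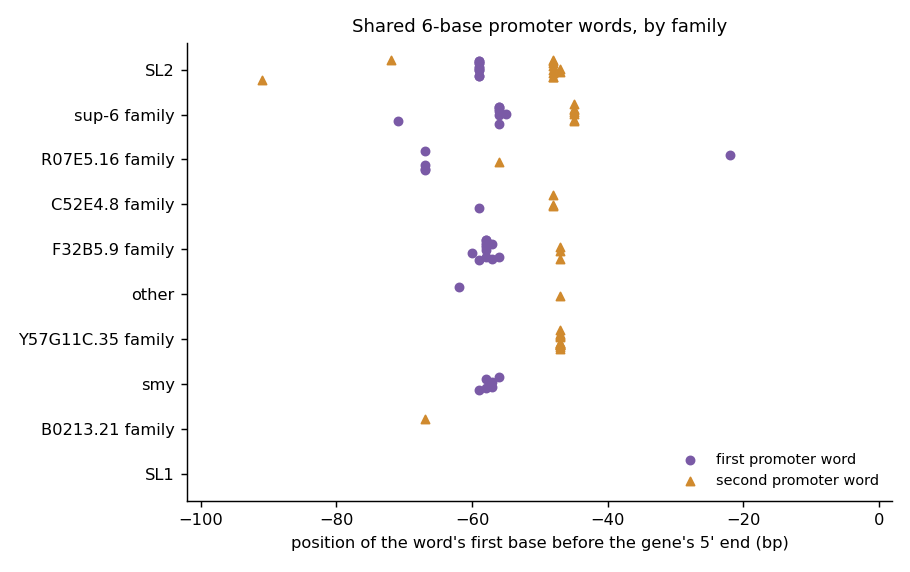
Position of the 6-base words AACCCG (circles) and TGTCGG (triangles) before the 5′ end of snRNA genes, in bp, with 1 row per family and 1 point per gene that holds the word. Most AACCCG words begin near position -58 and most TGTCGG words near -47, and the SL1 row is empty.

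The plot of word positions shows AACCCG further from the gene in the R07E5.16 family, at a median position of -67 over 5 genes, against -59 in SL2 genes and -58 in the F32B5.9 family. In the shown promoters of W05B2.8 and F54D8.7 the corresponding letters read cggaaccca, which is not the exact word.

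FKH-3 summits lay near a larger share of these genes than of annotated genes in general. The authors deposited 30000 regions for each replicate and for the pooled data, which include background, and 441 pooled regions past the threshold of the irreproducible discovery rate (IDR). A region's score has no stated scale, so it is used as a rank within its list, with rank 1 the highest. An IDR summit lay within 100 bp of 9 of the 129 snRNA genes, or 6.98%, against 1.26% of all annotated genes. Within 250 bp it was 15 genes, or 11.6%, against 1.55% of all genes. The share within 100 bp was 18.6% for tRNA genes (114 of 612) and 15.3% for snoRNA genes (53 of 346), both above the snRNA genes. Genes are not replicates and neighbours can share a summit, so these shares carry no test. The 15 genes held 14 distinct summits, 3.17% of the IDR list.

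With the background regions included, a pooled summit lay within 100 bp of 49 snRNA genes, or 38.0%, against 30.4% of all annotated genes. Within 250 bp there were 69, or 53.5%, against 34.7%. Within 100 bp the share was above the snRNA genes for protein-coding genes (54.5%), snoRNA genes (39.6%) and tRNA genes (68.1%), and it was 1.07% for the 15363 piRNA genes. The window surrounds the whole gene, so a longer gene can be reached more easily. Median lengths were 109 nt for snRNA, 72 for tRNA, 130 for snoRNA, 21 for piRNA and 2027 for protein-coding genes. No share here, for pooled or IDR summits, was adjusted for length. Among genes with a pooled summit within 100 bp, the median best rank was 4215 for snRNA genes and 10114 for all genes. In replicate 1 it was 7122 for snRNA genes and 10592 for all genes, and in replicate 2 it was 4723.5 and 10321.5. The 1000 highest pooled regions came within 250 bp of 22 snRNA genes, or 17.1%, against 3.06% of all genes. In 49 of the 129 genes no list had a summit within 250 bp.

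The families differed in how many of their genes were reached. SL2 genes held 7 of the 15, with an IDR summit within 250 bp of 7 of 18 genes. The R07E5.16 family had 3 of 24, the sup-6 family 2 of 13, the C52E4.8 family 1 of 5 and the F32B5.9 family 1 of 12, and the remaining one was mir-1831, from the remainder. In the Y57G11C.35 family it was 0 of 19, in SL1 0 of 12, in smy 0 of 10 and in the B0213.21 family 0 of 7. Within 100 bp the SL2 genes had 3, the R07E5.16 family 3, the sup-6 family 2 and the C52E4.8 family 1.

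**Figure D2:**
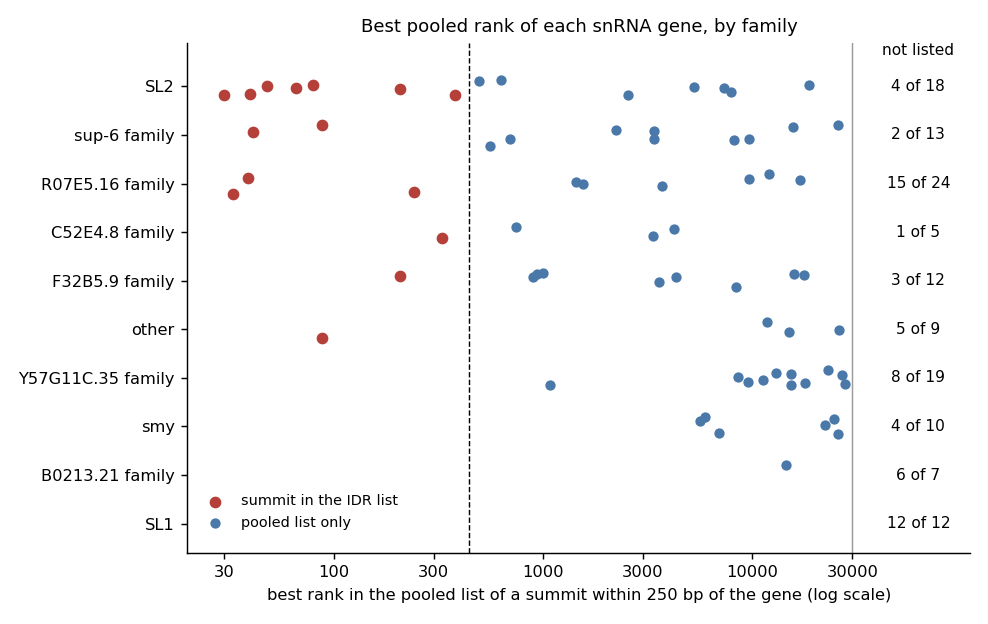
Best pooled rank of a summit within 250 bp of each snRNA gene (log scale, rank 1 highest), with 1 row per family and 1 point per gene. The dashed line marks rank 441, the end of the IDR list, and the right-hand column counts genes with no pooled summit, which are 12 of 12 for SL1 and 4 of 18 for SL2.

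The plot of ranks by family shows the 14 SL2 genes with a pooled summit between rank 30 and rank 18719, while the best SmY gene, smy-7, had rank 5647.

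Among the SL2 genes, sls-2.4 had the highest pooled rank of all 129 genes, while sup-39, with mir-1831 inside it, ranked highest in replicate 1 and W05B2.8 in replicate 2. Its best summit ranked 30 in the pooled list, 32 in replicate 1 and 37 in replicate 2, and lay 4 bp past the 3′ end. The next were sls-2.16, with rank 40 pooled, 76 in replicate 1 and 28 in replicate 2, and sls-2.8, with rank 48 pooled, 202 in replicate 1 and 35 in replicate 2. Both had the summit past the 3′ end, at 123 and 87 bp. The sls-2.16 summit fell in an exon of glr-2, which encodes a glutamate receptor subunit, and the sls-2.8 summit lay 2 bp from the annotated start of Y75B8A.23, so the summit cannot be given to 1 gene there. sls-2.1 was the exception among them, with its summit before the 5′ end, at -37 bp, and ranks of 66 pooled, 97 in replicate 1 and 81 in replicate 2.

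A pair of SL2 genes on chromosome II points toward each other. The summit of sls-2.2 ranked 80 pooled, 143 in replicate 1 and 51 in replicate 2, and lay 152 bp past its 3′ end. Its partner sls-2.3 had another summit between the genes, of rank 2553 pooled. Another pair on chromosome III, sls-2.14 and sls-2.15, points apart, and both summits fell in exons of W09D6.5. Here sls-2.15 had rank 208 pooled, 2063 in replicate 1 and 153 in replicate 2, and sls-2.14 had rank 381 pooled, 6815 in replicate 1 and 174 in replicate 2. Their summits lay 120 and 208 bp past the 3′ ends, on the outer sides of the pair. Neither was among the 441 highest of replicate 1.

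In the sup-6 family, sup-6 had a summit 22 bp past its 3′ end, in an intron of F58G1.7, with rank 41 pooled, 166 in replicate 1 and 29 in replicate 2. sup-39 had its summit 37 bp past the 3′ end, in an intron of C15F1.5, with rank 88 pooled, 21 in replicate 1 and 391 in replicate 2. The replicates ordered these genes in opposite ways, with sup-39 first in replicate 1 and sup-6 first in replicate 2. mir-1831, annotated as an snRNA gene of 22 nt, lies within sup-39 and shares its summit, so it adds no region. T08G5.11 and F08H9.10 followed outside the IDR list, at pooled ranks 555 and 695, with summits 68 and 65 bp past the 3′ end. The F08H9.10 summit fell in an exon of hsp-16.20.

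In the R07E5.16 family, genes with the same RNA sequence had different ranks. W05B2.8, whose summit fell in an intron of the dynein gene dhc-4, had rank 33 pooled, 50 in replicate 1 and 26 in replicate 2. Y9C9A.111 had rank 242 pooled, 584 in replicate 1 and 305 in replicate 2. The annotated genes are identical letter for letter. In all, 14 genes have this sequence, of which 2 had an IDR summit and 6 a pooled summit within 250 bp. R07E5.16 and C28A5.7, identical too, ranked 1439 and 1556 pooled. F54D8.7, which is 1 nt shorter than W05B2.8, had rank 39 pooled, 138 in replicate 1 and 45 in replicate 2. The summits of F54D8.7 and Y9C9A.111 lay before the 5′ end, at -21 and -44 bp, and that of W05B2.8 lay 26 bp past the 3′ end, each within 5 bp of its place in both replicates. Reads from inside identical genes cannot be assigned to 1 copy.

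In the C52E4.8 family, F10D2.13 was the only one of the 15 genes with its summit inside the gene. It ranked 329 pooled, 2627 in replicate 1 and 300 in replicate 2, and the summit fell in an intron of ugt-37. C52E4.8 ranked 742 pooled, 767 in replicate 1 and 354 in replicate 2, with its pooled summit 84 bp past the 3′ end. That summit is also at -622 bp from the start of snr-4, which encodes an Sm protein. In the F32B5.9 family, F32B5.9 had rank 207 pooled, 297 in replicate 1 and 264 in replicate 2, with the summit 133 bp past the 3′ end, in an exon of cpz-1. F38E11.10 had rank 897 pooled and 147 in replicate 2 and was not listed in replicate 1. ZK897.2 had rank 939 pooled, 4252 in replicate 1 and 872 in replicate 2. The summits of these 3 genes lay 110 to 133 bp past the 3′ end in the pooled list. That of F38E11.10 fell in an exon of hsp-12.3 and that of ZK897.2 in an intron of unc-31.

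The other families ranked lower. Y57G11C.35 led its family with rank 1076 pooled, 8704 in replicate 1 and 819 in replicate 2. smy-7 had rank 5647 pooled, 1444 in replicate 1 and 17076 in replicate 2, so the replicates placed it far apart. T10H4.16 of the B0213.21 family had rank 14489 pooled. Just outside the IDR list stood sls-2.18 at rank 496, T08G5.11 at 555 and sls-2.9 at 631, and just inside it sls-2.14 at 381 and F10D2.13 at 329. The summit of sls-2.9 also lay within 100 bp of the tRNA gene M01E5.t1. None of the 15 IDR genes shared its summit with a tRNA, snoRNA or rRNA gene at that distance. Genes of biotype ncRNA did lie within 100 bp of the summits of sls-2.4, sls-2.16, sls-2.8, sup-39 and F10D2.13, and a piRNA gene near that of sup-39.

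Within 250 bp, most best summits lay past the 3′ end of the gene. Among the 15 genes with an IDR summit within 250 bp, it was downstream in 11 (73.3%), upstream in 3 and inside in 1. Counted by distinct summit, 10 of 14 were downstream. The downstream summits lay 4 to 208 bp past the 3′ end, with a median of 120 bp. For SL2 genes it was 6 of 7, and for all 69 genes with a pooled summit 42 (60.9%), with 11 upstream and 16 inside. At snoRNA genes IDR summits were downstream in 3 of 55 genes (5.45%) and upstream in 41 (74.5%), and at tRNA genes they were downstream in 28 of 117 (23.9%) and inside in 62 (53.0%). With the window of 100 bp, 33.3% of 9 snRNA genes had the IDR summit upstream, against 20% of 15 with 250 bp. This view of the sides was chosen after the positions had been seen, and the difference between gene types was not tested. The pair of promoter words was sought only before the gene, so its side cannot be compared with that of the summits.

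**Figure D3:**
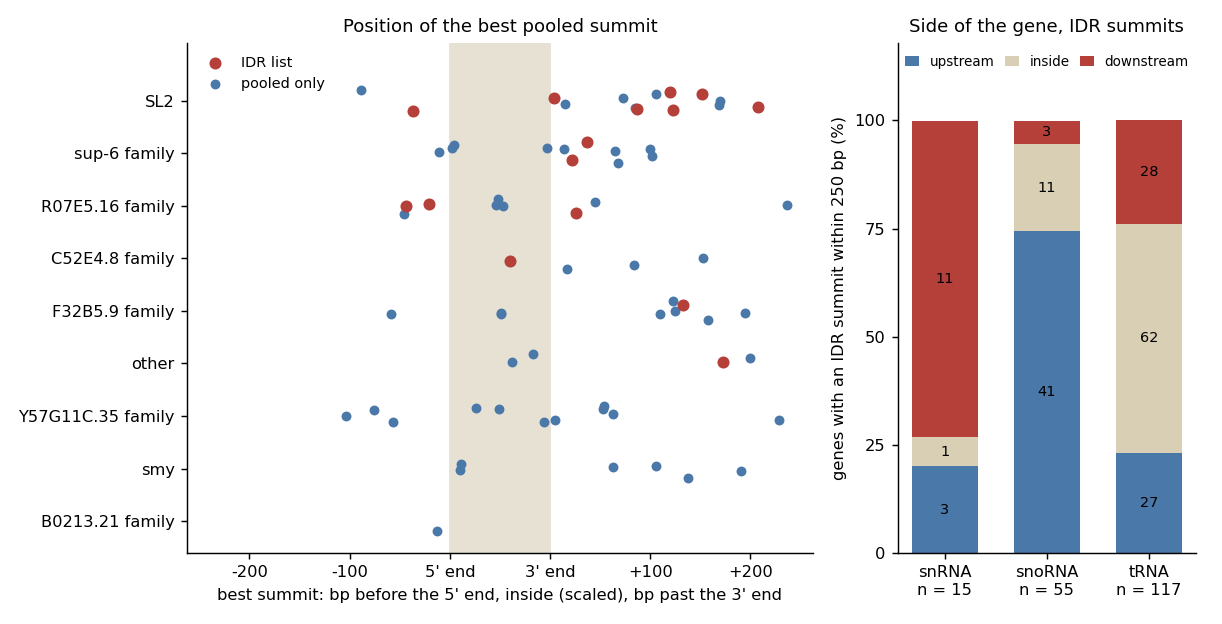
Left, position of the best pooled summit of each snRNA gene, in bp before the 5′ end or past the 3′ end, with the gene drawn as a band of 1 width; each point is 1 gene. Right, share of genes with an IDR summit within 250 bp by side of the gene, for 15 snRNA, 55 snoRNA and 117 tRNA genes, with the number of genes in each part; 11 of 15 snRNA genes are downstream, 41 of 55 snoRNA genes upstream.

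In the plot of summit positions most points lie past the 3′ end. The summit was on the same side in both replicates for 14 of the 15 genes, the exception being sls-2.4, whose summit in replicate 1 was inside the gene. The replicates' summits lay a median of 33 bp apart at these genes and at most 125 bp, the largest gap at sls-2.16. In the deposited lists the summit was the middle of the region in 96.1% of IDR regions and 99.9% of pooled regions, with a median region width of 390 bp in both. A small distance from the gene is therefore limited by how the region was placed. Of the 47 genes listed in both replicates within 250 bp, 30 had the summit on the same side. The 15 genes were picked by a list drawn from both replicates, so closer agreement there is partly by choice.

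The replicates gave these genes different weight. The 441 highest regions of replicate 1 lay within 100 bp of 7 snRNA genes, against 1.16% of all genes, and within 250 bp of 11, against 1.45%. In replicate 2 it was 13 genes within 100 bp, against 1.24% of all genes, and 19 within 250 bp, against 1.57%. All 15 IDR genes were listed in both replicates, 15 among the 441 highest of replicate 2 and 11 among those of replicate 1. Those not among the 441 highest of replicate 1 were Y9C9A.111, F10D2.13, sls-2.14 and sls-2.15. The IDR list was drawn from these same replicates, so high ranks in both are partly fixed by the choice of genes. Over all 15 IDR genes the median rank was 143 in replicate 1, 81 in replicate 2 and 80 pooled. Of the 15, 12 ranked better in replicate 2. All 15 had the highest −log10 q-value of the pooled list, 2.06, so the authors' q-value gives no order among them.

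**Figure D4:**
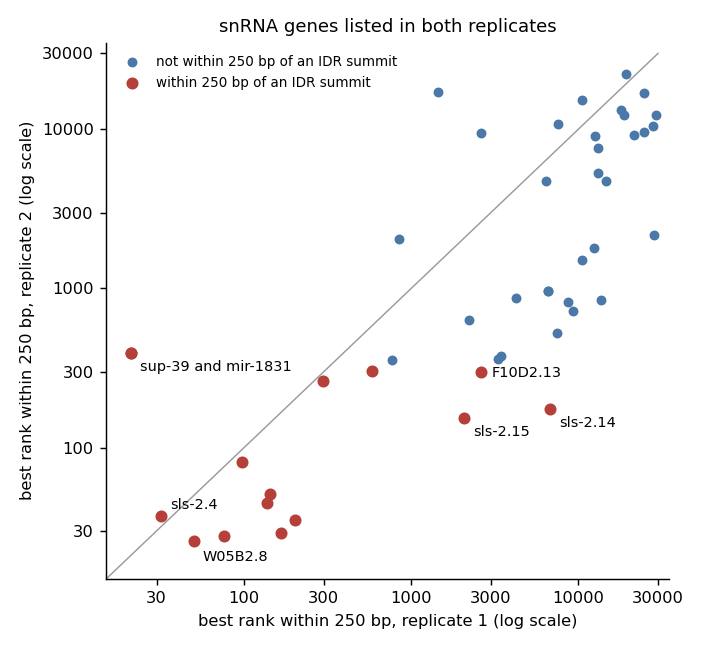
Best rank of a summit within 250 bp in replicate 1 (x axis) and replicate 2 (y axis), both on log scales, for the 47 snRNA genes listed in both; the line marks equal ranks. Of these, 38 lie below the line, with the better rank in replicate 2, and sup-39 lies above it.

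The plot of replicate ranks shows sls-2.14, sls-2.15 and F10D2.13 farthest below the line among the 15 genes. Read depth is unknown, as the lists give no read counts, and its part in the difference between replicates was not tested.

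The genes differ in how much of their sequence occurs more than once in the genome. Over the gene and 100 bp on each side, 36-base stretches found elsewhere made up a median of 100% in SL1 genes, 63.4% in the Y57G11C.35 family, 39.3% in the R07E5.16 family and 15.7% in SL2 genes. The 15 genes with an IDR summit had a median of 18.9% and at most 31.5%, and the 60 genes with no pooled summit within 250 bp had a median of 36.8%. Of 34 genes at or below 10%, 5 had an IDR and 16 a pooled summit within 250 bp. Of 23 genes above 10% and up to 25%, 5 had an IDR and 16 a pooled summit, and of 40 genes above 25% and up to 50%, 5 had an IDR and 29 a pooled summit. Of 32 genes above 50%, 0 had an IDR summit and 8 a pooled summit. The share of genes with a summit thus did not fall steadily as the recurring share went up. How reads with several matches were treated is not given in the sources used here, and its part in these counts was not tested.

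**Figure D5:**
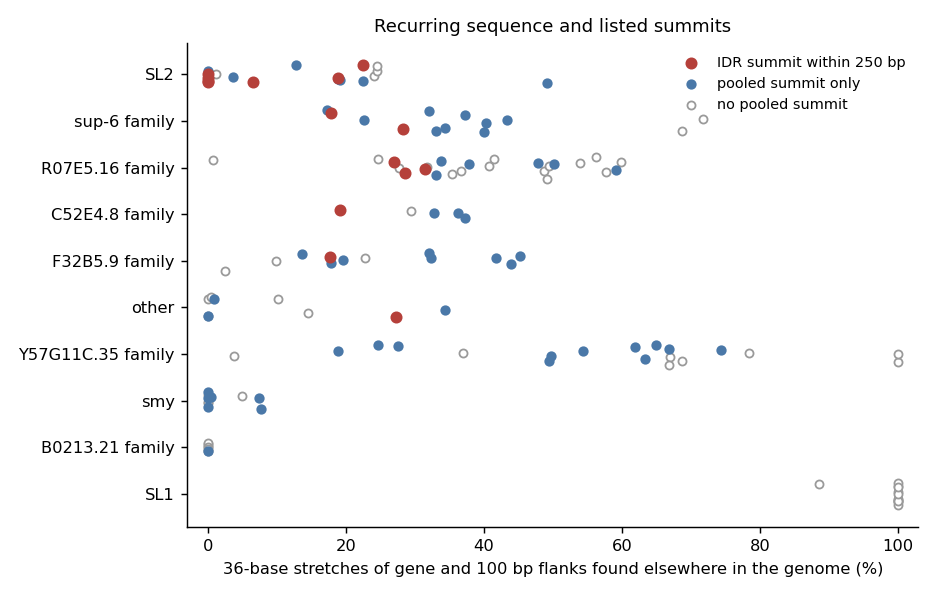
Share of 36-base stretches in each snRNA gene and its 100 bp flanks that occur elsewhere in the genome (x axis, %), with 1 row per family and 1 point per gene, filled by whether the gene had an IDR summit, a pooled summit only or no pooled summit within 250 bp. All IDR genes lie at or below 31.5%, and the SL1 genes lie at 88.6 to 100%.

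The plot of recurring sequence sets SL1 apart. Its 12 genes lie in 1 cluster on chromosome V from 17118154 to 17132107, and no list had a summit anywhere in these 13954 bp. The nearest summit to an SL1 gene was 1344 bp away in the pooled list, 1300 bp in replicate 1 and 3448 bp in replicate 2. Since nearly all 36-base stretches there recur, the lists do not tell whether FKH-3 was absent from the SL1 genes. Low recurrence did not always go with a summit, as the 10 smy genes lay at 0 to 7.7% and none had an IDR summit.

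Promoter words and summits were set side by side. Of 72 genes with AACCCG or TGTCGG, 12 had an IDR summit within 250 bp and 51 a pooled summit. Of 57 with neither, among them the 12 SL1 genes, 3 had an IDR summit and 18 a pooled summit. The overlapping genes sup-39 and mir-1831 share a word and an IDR summit and are each counted. So are T27E4.12 and T27E4.22, which share a word and a pooled summit. Family and recurring sequence vary along with the words, and their part was not tested. The forkhead family word GTAAACA was searched on both strands together with its variant GTAAATA, and so were the forms beginning with A, ATAAACA and its variant ATAAATA. Whether they overlap the promoter words was not examined. A forkhead word was within 100 bp of 1 of the 14 IDR summits near snRNA genes, or 7.14%. The same held for 12% of all IDR summits and 13.7% of all pooled summits. GTAAACA alone was at 0 of 14, against 2.72% of all IDR summits.

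Protein genes that make, assemble or use these RNAs were examined at their starts. Of 54 genes listed under Sm and Lsm proteins, SL snRNP proteins, SNAPc, Integrator and snRNP proteins, 49 were found under these names. Whether each protein belongs to the particle it is listed under, such as sut-2 under SL snRNP, was not checked. An IDR summit lay near a start, between 1000 bp before and 200 bp after it, in 1 of the 49, against 0.886% of protein-coding genes. It was snrp-200, which encodes the helicase that unwinds U4 from U6, with the summit 127 bp downstream of the start and rank 273 pooled, 782 in replicate 1 and 195 in replicate 2. None of the 7 Sm, 7 Lsm, 5 SL snRNP, 7 SNAPc and 11 Integrator genes had one. The next were lsm-8, at rank 608 with the summit at -447 bp from the start, and snr-4, at rank 742 through the region it shares with C52E4.8.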

How the data were processed

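Per the labels, the series holds 2 biological replicates of 1 group. The authors deposited region lists on ce11 and ce10 with a score per region, the −log10 of their q-value and a summit offset in bp, for each replicate, for both pooled, and after IDR thresholding. No label or header names an aligner or a peak caller, and how deeply the libraries were sequenced is unknown. The score was used only as a rank within its list, and the ce10 lists were not used.

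Genes came from Ensembl release 115 (WBcel235, the assembly of ce11), symbols and sequence from RefSeq. All 129 gene IDs matched a RefSeq symbol. A gene counted as reached when a summit lay within 100 or 250 bp of it, counts were set beside the same count over all genes, and no test was made. Named are the genes within 250 bp of an IDR summit or of the 1000 highest pooled regions, the best of each other family, and the 3 just outside the IDR list. Families, members, lists and the view of sides were chosen with earlier results of these data known. The search was tested on simulated summits. Python 3.11.15, numpy 2.4.6, pandas 2.3.3, Biopython 1.88 and matplotlib 3.10.9 were used.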

Additional observations from a re-analysis of the deposited data

How the results depend on the processing

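No paired analysis was possible because all samples form 1 group. The count for genes named U6 was not run, since no gene carries that name. Why values changed was not tested, although shorter or longer lists and smaller gene sets change the count by construction. Leaving out each replicate gave 7 to 13 snRNA genes, 3 to 6 spliced-leader genes, 4 to 7 other snRNA genes, 28.6 to 30.8% upstream, best ranks of 21 to 26, 0 to 3 pathway protein genes and 68.4 to 72.7% downstream. The 9 snRNA genes within 100 bp became 1 with the summit inside the gene, 15 within 250 bp, 4 around the 5′ end, 15 and 25 with the 1000 and 5000 highest pooled regions, and 2 of 34 among genes with at most 10% recurring sequence. The 3 spliced-leader genes became 0, 7, 1, 5 and 6 under the first 5 of these settings. The 6 other snRNA genes became 1 inside the gene, 3 around the 5′ end, 10 and 19 with the longer lists, and 0 of 26 with at most 10% recurring sequence. The share of summits upstream, 33.3% of 9 genes, became 0 of 1 inside the gene, which that window fixes in advance. It became 0 of 2 with at most 10% recurring sequence, and 75% of 4 around the 5′ end. This last window leaves out summits more than 100 bp past the 5′ end by construction. The 1 pathway protein gene became 0 with the narrower window and 4 with the whole gene and 1000 bp upstream. The downstream share within 250 bp, whose settings were all chosen after seeing the data, was 60.9 to 77.3% with the longer pooled lists. Among genes with at most 10% recurring sequence it was 100% of 5 with IDR summits and 62.5% of 16 with all pooled summits.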
